A study of Mus musculus with 4 samples.

Results

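The RNAs described here are the box C/D small nucleolar RNAs (snoRNAs) of mouse macrophages and of the extracellular vesicles they release. They were taken from the table of small RNA counts as the transcripts typed snoRNA in GENCODE M21 with a symbol starting with Snord, and those with a symbol starting with Rnu3, the genes of the U3 snoRNA. This gave 88 transcripts, 84 Snord and 4 Rnu3, among the 141239 features of the table. They stand for 85 gene symbols, because Rnu3a, Rnu3b1 and Snord80 each have a second annotated transcript, and each of those second transcripts held 0 counts. Of the 88 members, 79 had a count in some library.

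The cells were RAW264.7, a mouse macrophage line, carrying a hairpin RNA named shDis3l2, directed at Dis3l2, or a non-silencing hairpin named shNS. All 4 groups received doxycycline at 1 µg per mL for 3 days before medium with vesicle-depleted serum was given for 24 h, and each group is 1 library: vesicles shDis3l2, vesicles shNS, cells shDis3l2 and cells shNS. Vesicles were purified by centrifugation and a sucrose gradient and treated with micrococcal nuclease, and whether a line was a single clone is not stated in the labels. Dis3l2 encodes a cytoplasmic exonuclease that degrades RNAs bearing oligouridine tails. Its own counts go against the label in cells, with 13232 counts in the cell library labelled shDis3l2 and 42 in the cell library labelled shNS, a 334-fold difference, and with 1894 and 1713 counts in the vesicle libraries labelled shDis3l2 and shNS. The source of these counts was not tested. They do not tell reads of Dis3l2 mRNA from reads of the hairpin directed at it, and so do not measure the knockdown. Groups are therefore named below by their labels only.

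Depth was similar across libraries, between 17612144 and 19740443 counts, but makeup was not. miRNA hairpins held 10.5% of the counts in vesicles labelled shDis3l2, 19.1% in vesicles labelled shNS, 61.2% in cells labelled shDis3l2 and 68.3% in cells labelled shNS, and tRNAs held 35.4%, 38.5%, 5.18% and 4.04% in the same order of libraries. Ratios are therefore given as CPM, with all counts of a library as the denominator, and, where it changes a statement, with the counts outside miRNA hairpins as the denominator. Of 12 macrophage marker genes, 11 had a count in vesicles labelled shDis3l2, 11 in vesicles labelled shNS, 11 in cells labelled shDis3l2 and 10 in cells labelled shNS, and they summed to 7657, 15972, 44829 and 64860.2 CPM in that order, with Mir142 at 788076 and 1118135 counts in the cells labelled shDis3l2 and shNS. The other markers did not all follow Mir142. In the same cells F630028O10Rik had 28415 and 152898 counts (log2 ratio -2.33) and Mir155 had 8518 and 8769 (0.06). Csf1r had 184 and 106 (0.89), and Itgam had 26 and 0. Mir223 had 0 counts in every library. Under shDis3l2, 9 markers had at least 100 counts over vesicles and cells, with 6 at least 2-fold higher in vesicles and 3 lower. Under shNS there were 8, with 5 higher and 3 lower. Under both labels the lower ones were Mir142, F630028O10Rik and Mir155. Of all features with as many counts, 77.3% under shDis3l2 and 74.5% under shNS were at least 2-fold higher in vesicles. The 3 erythroid and serum markers summed to 18.2 CPM in vesicles labelled shDis3l2, 27.7 in vesicles labelled shNS, 8.20 in cells labelled shDis3l2 and 6.89 in cells labelled shNS. In that order of libraries Mir451a had 157, 376, 3 and 4 counts, Mir122 had 163, 125, 148 and 132, and Mir486 had 0, 3, 0 and 0. The 3 epithelial markers summed to 15.0, 15.7, 31.1 and 20.5 CPM in the same order, but differed in direction. Mir200c had 115, 158, 452 and 332 counts, Mir141 had 93, 82, 117 and 73, and Mir205 had 56, 46, 3 and 0. The neural hairpins Mir124a-1 and Mir9-1 had 2 counts in vesicles labelled shDis3l2 and 0 in the other libraries. The part of all these markers in the results below was not tested.

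Box C/D snoRNAs are nucleolar RNAs that assemble with fibrillarin, Nop56, Nop58 and Snu13 on the conserved C and D boxes near their ends. Most of them base-pair with ribosomal RNA and direct 2′-O-methylation of the paired nucleotide, while a few, among them U3, U8, U14 and U22, are required for cleavage of the ribosomal RNA precursor, and another few guide methylation of the U6 spliceosomal RNA. In mammals nearly all methylation guides are cut out of introns of host genes, many of which encode ribosomal proteins or translation factors, and U3, U8 and U13 are made from their own promoters.

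The sequences below are those of the transcripts on which the results turn, from GENCODE M21 on build GRCm38, written 5′ to 3′ with T for U. Capitals mark the C box core TGATGA, where the transcript holds it, and the last CTGA, the D box core. The U3 copy Rnu3b1 lies at chr11:87443237-87443452 on the plus strand, inside the annotated gene Tex14. The U14 copies Snord14c (chr9:40803583-40803668, plus strand), Snord14d (chr9:40803995-40804080, plus strand) and Snord14e (chr9:40804748-40804837, plus strand) lie in Hspa8, and the copy Snord14a (chr7:116333171-116333257, minus strand) lies in Rps13. They are shown together because the copies in Hspa8 and the copy in Rps13 had different ratios.
Rnu3b1: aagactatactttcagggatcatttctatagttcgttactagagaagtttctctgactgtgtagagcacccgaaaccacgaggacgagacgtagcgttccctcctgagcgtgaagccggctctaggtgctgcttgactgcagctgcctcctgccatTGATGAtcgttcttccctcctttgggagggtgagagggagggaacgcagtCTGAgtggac
Snord14c: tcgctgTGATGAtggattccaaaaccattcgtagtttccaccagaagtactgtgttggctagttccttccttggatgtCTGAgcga
Snord14d: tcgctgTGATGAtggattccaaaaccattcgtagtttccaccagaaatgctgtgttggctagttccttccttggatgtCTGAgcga
Snord14e: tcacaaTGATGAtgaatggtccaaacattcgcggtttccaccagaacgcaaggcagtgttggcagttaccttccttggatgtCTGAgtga
Snord14a: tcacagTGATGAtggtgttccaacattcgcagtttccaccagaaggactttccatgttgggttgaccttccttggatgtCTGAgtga
Snord14c and Snord14d are both 86 nt long, differ by 2 edits and share a run of 46 nt, so reads of them can be split between the copies. Snord14c and Snord14e differ by 19 edits, and so do Snord14c and Snord14a.

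The next are Snord118, the U8 snoRNA (chr11:69073427-69073561, plus strand), and Snord104 (chr11:106500993-106501062, plus strand), a methylation guide. On all counts they are among 5 members at least 2-fold higher in cells and at least 2-fold lower in vesicles with the label shDis3l2. A difference in sign alone was common among the members.
Snord118: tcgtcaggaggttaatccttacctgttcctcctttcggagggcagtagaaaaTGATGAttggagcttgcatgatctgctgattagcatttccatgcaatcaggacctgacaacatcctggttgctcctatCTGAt
Snord104: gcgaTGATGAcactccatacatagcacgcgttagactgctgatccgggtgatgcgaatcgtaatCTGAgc
The last set is that of the most abundant members of the cells labelled shNS, all short methylation guides for large-subunit ribosomal RNA: Snord78 (chr1:161036984-161037049, plus strand, in Gas5), Snord37 (chr10:81178950-81179013, plus strand, in Eef2) and Snord52 (chr17:34950952-34951017, minus strand, in 1110038B12Rik). Snord78 does not hold TGATGA.
Snord78: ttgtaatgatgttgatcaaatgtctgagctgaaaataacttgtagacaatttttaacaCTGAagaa
Snord37: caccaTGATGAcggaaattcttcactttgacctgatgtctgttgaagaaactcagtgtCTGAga
Snord52: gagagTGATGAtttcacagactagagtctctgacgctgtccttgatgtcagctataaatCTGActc
On the sense strand, TGATGA was found in 64 of the 88 members (72.7%), in 0 of 41 box H/ACA snoRNAs (symbols starting with Snora), in 16.1% of the 1235 other features typed snoRNA and in 1.73% of the 1907 miRNA hairpins of 60 to 150 nt. CTGA was found in all 88 members, and within the last 12 letters of 76 of them (86.4%), against 3 of the 41 H/ACA snoRNAs (7.32%). CTGA anywhere was also found in 53.7% of the H/ACA snoRNAs and 76.7% of the other features typed snoRNA. TGATGA within the first 15 letters together with CTGA within the last 12 was found in 48 members (54.5%). The same pair was found in 0 H/ACA snoRNAs and in 9.96% of the other features typed snoRNA. The annotated symbols and types thus pick transcripts in which the box motifs were more frequent than in these sets, though not every member holds both.

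Members covered a wide range of levels. In vesicles labelled shDis3l2, 37 members reached 100 counts, in vesicles labelled shNS 47, in cells labelled shDis3l2 75 and in cells labelled shNS 71. Each library had a count for 78 members, and the limit that a count of 0 allows, 3 counts, was 0.170, 0.165, 0.163 and 0.152 CPM in the libraries in the order vesicles shDis3l2, vesicles shNS, cells shDis3l2, cells shNS. The 5 members of the imprinted, brain-expressed group (Snord116l9, Snord116l12, Snord116l14, Snord64 and Snord107) had 0 counts in every library. The members held 41.9% of all snoRNA and scaRNA counts in vesicles labelled shDis3l2, 38.9% in vesicles labelled shNS, 38.3% in cells labelled shDis3l2 and 34.8% in cells labelled shNS, with the rest on features of other symbols. Snord43, which the annotation types as a miRNA, is outside the rule; it had 526, 716, 16747 and 18038 counts in that order of libraries.

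Box C/D snoRNAs made up 4.26% of all counts in cells labelled shDis3l2 and 3.03% in cells labelled shNS, with exact binomial 95% intervals of 4.25 to 4.27% and 3.02 to 3.04%. In vesicles they made up 0.114% with the label shDis3l2 (0.112 to 0.116%) and 0.170% with the label shNS (0.168 to 0.171%). As a share of the counts outside miRNA hairpins, they were 0.127% in vesicles labelled shDis3l2, 0.210% in vesicles labelled shNS, 11.0% in cells labelled shDis3l2 and 9.55% in cells labelled shNS. All intervals here cover counting error only, since there is 1 library a group and reads need not be independent molecules, and no difference has a replicate check or a p-value. In these bulk libraries a change in the RNA per cell cannot be told apart from a change in the cells sampled.

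Different members led in vesicles and in cells. The U14 copy Snord14c was first in both vesicle libraries, with 14.9% of box C/D counts in vesicles labelled shDis3l2 and 14.6% in vesicles labelled shNS, followed by Rnu3b1 with 12.3% and 11.0%. Snord78 was first in both cell libraries, with 7.83% in cells labelled shDis3l2 and 13.4% in cells labelled shNS, followed by Snord37 with 6.89% and 9.66%. The 10 most abundant members of each library held 62.2% of its box C/D counts in vesicles labelled shDis3l2, 62.8% in vesicles labelled shNS, 51.6% in cells labelled shDis3l2 and 55.3% in cells labelled shNS.

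The list named here pre-rRNA processing takes in U3, U8, U14 and U22, and also U13, whose part given below is in an acetylation and not in cleavage. The snoRNAs of this list held 45.7% of box C/D counts in vesicles labelled shDis3l2, 43.7% in vesicles labelled shNS, 24.1% in cells labelled shDis3l2 and 9.26% in cells labelled shNS. U14 alone held 26.9%, 25.0%, 13.3% and 4.58% in that order of libraries, and U3 held 14.4%, 12.6%, 7.40% and 2.67%. Snord78, Snord37 and Snord52 together held 7.02%, 6.61%, 18.9% and 31.2%. Members shorter than 75 nt held 28.5%, 30.4%, 47.9% and 63.0%. The processing snoRNAs thus had their smallest share, and the short guides their largest, in cells labelled shNS.

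**Figure D1:**
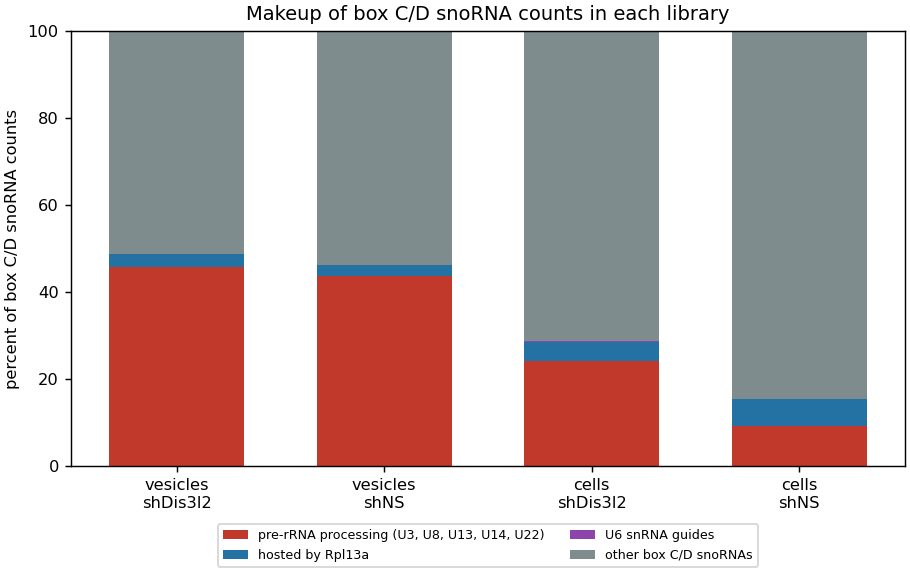
Percent of box C/D snoRNA counts by group of snoRNAs (vertical axis) in the 4 libraries (1 bar each). The pre-rRNA processing group makes up 45.7%, 43.7%, 24.1% and 9.26% of the bars from left to right, and the U6 guides are too few to be seen.

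**Figure D2:**
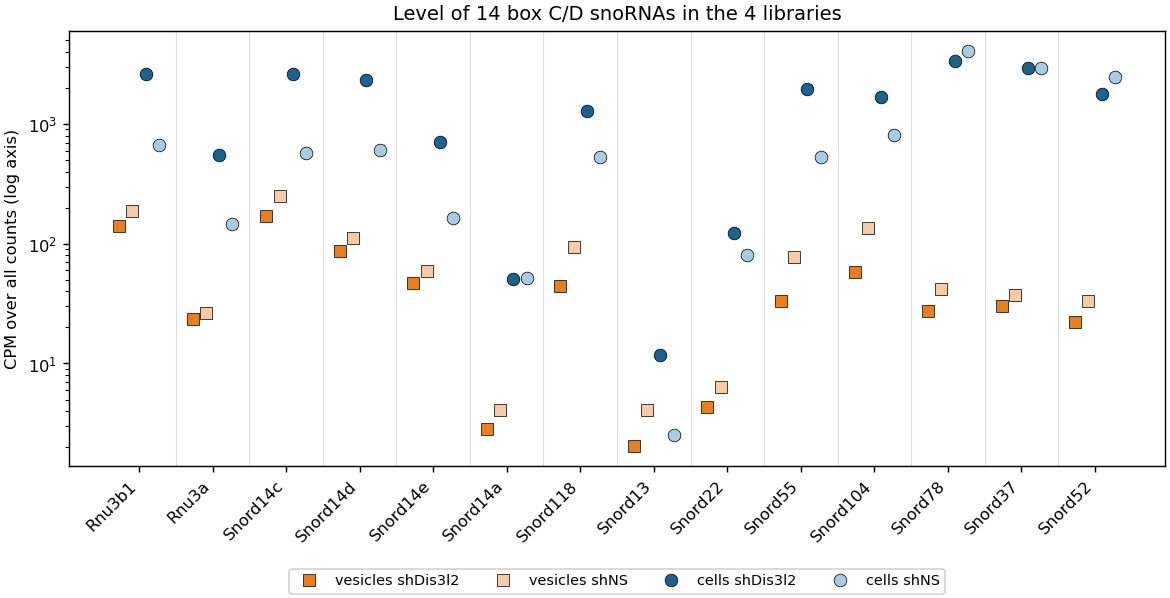
Level of 14 box C/D snoRNAs in CPM over all counts (log axis), with squares for vesicles and circles for cells, dark for the label shDis3l2 and light for shNS. The vesicle libraries lie under the cell libraries except for Snord13, and the 2 cell libraries lie apart for U3 and the U14 copies of Hspa8 but close together for Snord14a, Snord78, Snord37 and Snord52.

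In cells, many box C/D snoRNAs were higher with the label shDis3l2 than with shNS, among them U3, U13 and the U14 copies of Hspa8, while the most abundant short guides were not. A member counts as measured with at least 100 counts over the pair of libraries, and as differing when the 2 levels lie 2-fold or more apart and 1 is outside the exact 95% interval of the ratio. Of 77 measured members, 29 were higher by 2-fold or more (37.7%) and 0 were lower by as much, against 18.2% higher and 7.23% lower of the 2740 measured features of the whole table. The median log2 ratio of members was 0.54 and that of all measured features 0.12. Per counts outside miRNA hairpins the medians were 0.25 for members and -0.18 for all features, and 22 members were at least 2-fold higher, against 13.1% higher and 11.7% lower among all features. Ratios above 1 numbered 63 of 77 on all counts and 42 of 77 outside miRNA hairpins, so that the side of 1 on which a member near 1 falls depends on the scale. Box H/ACA snoRNAs were alike in count, with 12 of 29 measured at least 2-fold higher, 1 lower and a median of 0.67. Among the members nearest the minimum of 100 counts, Snord88c (74 and 33 counts in cells labelled shDis3l2 and shNS) was inside and Snord123 (43 and 2 counts) outside; both were picked here for that place only.

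**Figure D3:**
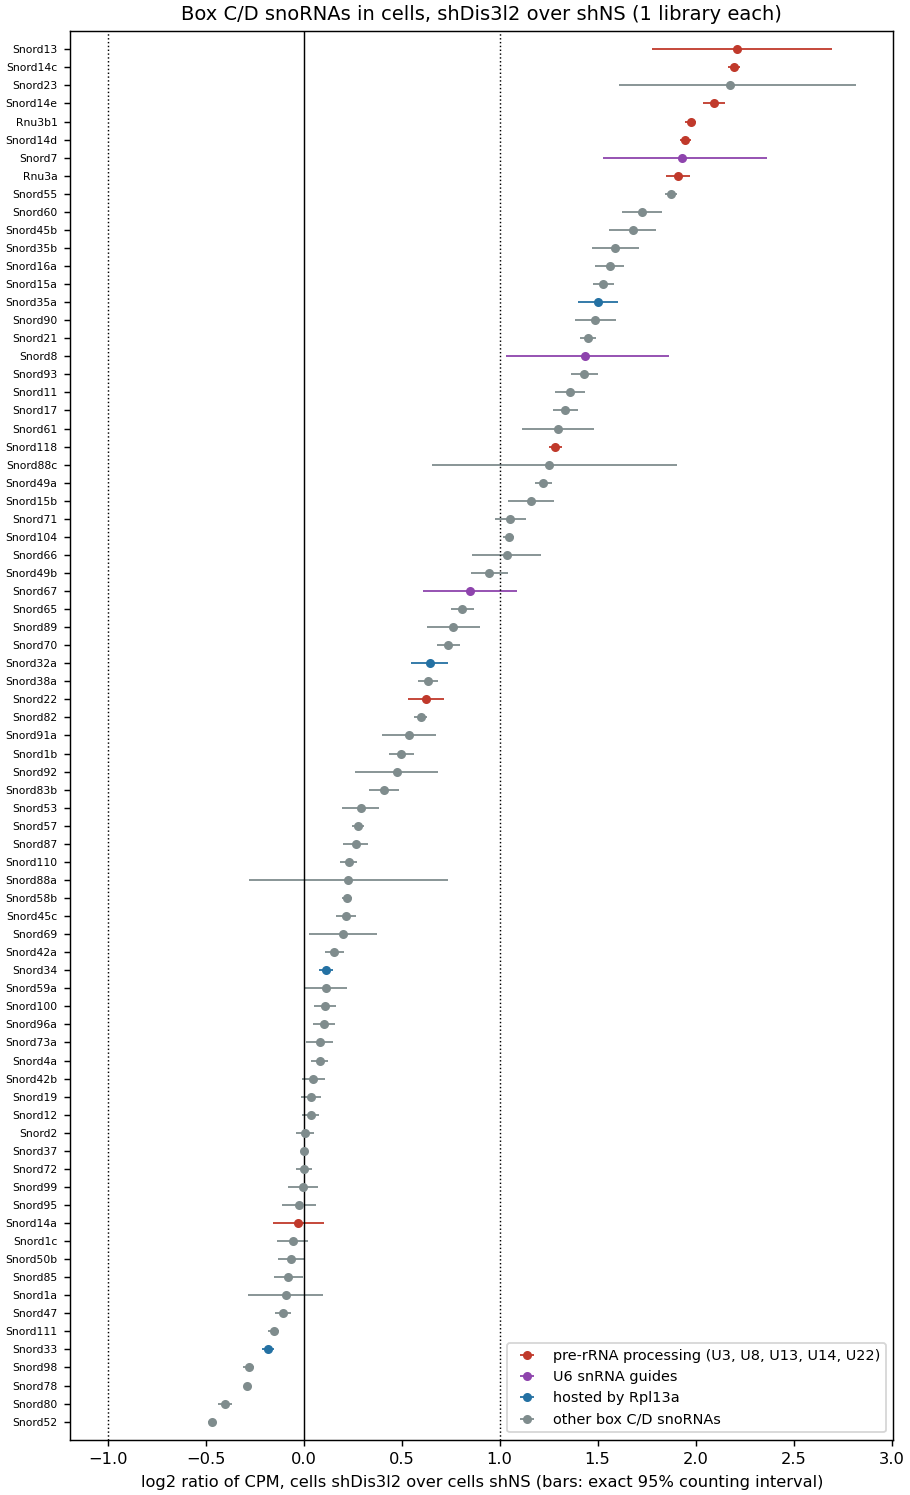
log2 ratio of CPM, cells labelled shDis3l2 over cells labelled shNS, for the 77 measured box C/D snoRNAs, with exact 95% counting intervals as bars, coloured by group. Dotted lines mark 2-fold, and the ratios run from -0.47 for Snord52 to 2.21 for Snord13.

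Of the 11 members of the pre-rRNA processing list, 9 were measured in cells and 7 of these were at least 2-fold higher with the label shDis3l2, with a median log2 ratio of 1.95. U3 takes part in the earliest cleavages that lead to small-subunit ribosomal RNA. Rnu3b1 had 140.2 CPM in vesicles labelled shDis3l2, 187 in vesicles labelled shNS, 2599.9 in cells labelled shDis3l2 and 661 in cells labelled shNS. Its level in cells labelled shDis3l2 was 3.93-fold that in cells labelled shNS (95% interval 3.86 to 4.01). Rnu3a, which differs from Rnu3b1 by 32 edits and shares a run of 50 nt with it, had 23.7, 26.3, 552 and 147 CPM in the same order of libraries and a ratio in cells of 3.76 (3.61 to 3.92). Both U3 genes were thus high in cells labelled shDis3l2, lower in cells labelled shNS and lowest in vesicles. For each of them, 11 or more other features of the table share at least 30 nt, the other U3 members included. Of those outside the members, Gm24826 had the most, 61 counts in cells labelled shDis3l2 and 53 in cells labelled shNS. Few counts were thus placed on other copies, and reads may be split mainly between Rnu3a and Rnu3b1.

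U14 is needed for small-subunit ribosomal RNA and also guides a methylation on it. Snord14c had 169.7 CPM in vesicles labelled shDis3l2, 248 in vesicles labelled shNS, 2607 in cells labelled shDis3l2 and 569 in cells labelled shNS, a ratio in cells of 4.59 (4.49 to 4.68). Snord14d had 86.9, 111, 2321 and 602 CPM in that order, a ratio in cells of 3.86 (3.78 to 3.94). Snord14e had 47.4, 59.6, 703 and 165 CPM, a ratio in cells of 4.26 (4.10 to 4.43). The copies of Hspa8, which encodes a constitutive heat shock chaperone, therefore moved together. Snord14a, the copy in the ribosomal protein gene Rps13, had 2.84, 4.12, 50.3 and 51.3 CPM in the same order, and its levels in the cell libraries labelled shDis3l2 and shNS differed by 1.02-fold, within counting error (log2 ratio -0.03, interval -0.16 to 0.10). Summed with the Rps13 transcripts whose exons hold it, Snord14a had 2737 counts in cells labelled shDis3l2 and 1506 in cells labelled shNS, a log2 ratio of 0.96. Each of the 3 copies in Hspa8 also lies within an exon of an annotated retained-intron transcript, which itself had 10335 counts in cells labelled shDis3l2 and 1993 in cells labelled shNS.

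The other processing snoRNAs spread widely. U8 (Snord118) acts in processing of the large-subunit ribosomal RNAs and had 1283 CPM in cells labelled shDis3l2 and 527 in cells labelled shNS, a ratio of 2.43 (2.38 to 2.49) whose log2 was 1.28 on all counts and 0.99 outside miRNA hairpins, under 2-fold. Snord13, the U13 snoRNA, is required for acetylation of a cytidine of small-subunit ribosomal RNA and was scarce, with 218 counts in cells labelled shDis3l2 and 50 in cells labelled shNS, a ratio of 4.64 (3.42 to 6.49). U22 (Snord22), a snoRNA of Snhg1 needed for small-subunit ribosomal RNA, had 123 CPM in cells labelled shDis3l2 and 79.8 in cells labelled shNS, a ratio of 1.54 (1.45 to 1.65). U22 and Snord14a were the measured members of the list that stayed under 2-fold.

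The guides of U6 snRNA methylation were scarce: Snord7, Snord8 and Snord67 were the members of that list among the 88. Snord7 had 225 counts in cells labelled shDis3l2 and 63 in cells labelled shNS, a log2 ratio of 1.93 (1.53 to 2.36). Snord8 had 175 and 69 counts, a log2 ratio of 1.44 (1.03 to 1.87). Snord67 had 393 and 234 counts, a log2 ratio of 0.85 (0.61 to 1.09). Snord7 and Snord8 were thus at least 2-fold higher with the label shDis3l2 and Snord67 was not.

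Members of 1 host gene did not always share a ratio. In Rpl13a, a ribosomal protein gene that hosts the guides Snord32a, Snord33, Snord34 and Snord35a, the log2 ratio in cells was 0.64 for Snord32a, -0.18 for Snord33, 0.11 for Snord34 and 1.50 for Snord35a. Snord35a had 155 CPM in cells labelled shDis3l2 and 54.8 in cells labelled shNS, and Snord33 had 888 and 1006 CPM. The only one of these guides at least 2-fold higher was Snord35a, which is also the longest of them, at 90 nt. In Rps3, Snord15a and Snord15b were both higher, with log2 ratios of 1.53 and 1.16; Snord15a is named here after its value was seen. The 3 measured snoRNAs of Gas5, a noncoding host gene, were Snord78 with 3334 CPM in cells labelled shDis3l2 and 4067 in cells labelled shNS, Snord80 with 640.2 and 845, and Snord47 with 471 and 506. Their log2 ratios were -0.29, -0.40 and -0.10, so that on their own counts all lay a little under 1 in cells labelled shDis3l2. With the Gas5 transcripts that hold them, Snord47 had 10646 counts in cells labelled shDis3l2 and 10467 in cells labelled shNS. Snord80 had 15934 and 17777 in the same way. The ratio of Snord47 was thus above 1 in that unit. Together the Gas5 snoRNAs took 10.4% of box C/D counts in cells labelled shDis3l2 and 17.9% in cells labelled shNS.

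Among the remaining members, those outside the lists, 19 of 61 measured were at least 2-fold higher, with a median log2 ratio of 0.28. Snord55 had 33.0 CPM in vesicles labelled shDis3l2, 76.9 in vesicles labelled shNS, 1953 in cells labelled shDis3l2 and 533 in cells labelled shNS. Its ratio in cells was 3.67 (3.59 to 3.75), the largest outside the processing list among members with more than 50 CPM. Snord104 had 58.5, 135, 1675 and 812 CPM in that order of libraries, and its log2 ratio in cells was 1.05 on all counts and 0.75 outside miRNA hairpins, under 2-fold. Less abundant members at least 2-fold higher on both scales included Snord60 (log2 ratio 1.73), Snord45b (1.68), Snord90 (1.49) and Snord21 (1.45). For Snord45b, counts of its host unit with Snord45c gave 0.40. Others, named after their values were seen, were Snord23 (2.18, from 128 counts in cells labelled shDis3l2 and 30 in cells labelled shNS), Snord35b (1.59), Snord16a (1.56) and Snord93 (1.43). At the other end, Snord37 in Eef2 had 2935 CPM in cells labelled shDis3l2 and 2926 in cells labelled shNS, a log2 ratio of 0.00 (-0.01 to 0.02). Snord52 had 1777 and 2454 CPM, a log2 ratio of -0.47 (-0.49 to -0.45), and Snord98 had 1036 and 1257 CPM, a log2 ratio of -0.28. Snord111 (1120.2 and 1245 CPM) and Snord58b (1514 and 1299.8 CPM) had log2 ratios of -0.15 and 0.22.

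The ratio in cells went with annotated length. Under 75 nt, 5 of 29 measured members were at least 2-fold higher with the label shDis3l2, with a median log2 ratio of 0.11. At 75 to 84 nt there were 4 of 16, with a median of 0.21. At 85 to 99 nt there were 10 of 19, with a median of 1.05. At 100 nt to under 150 nt there were 7 of 10, with a median of 1.36. At 150 nt or longer there were 3 of 3, with a median of 1.91. Among all 2740 measured features, whatever their type, 18.2% were at least 2-fold higher in cells labelled shDis3l2, with a median of 0.12. The median of the members under 75 nt was thus close to that of all features. Across the 77 members, which share their libraries, Spearman's rho with length was 0.53, and it was 0.49 over the 74 members under 150 nt and 0.48 over the 68 outside the processing list. Percent GC gave a rho of 0.45 over the 77. Reads were 50 nt long, so no member was read from end to end, and the values do not tell a whole snoRNA from a fragment.

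**Figure D4:**
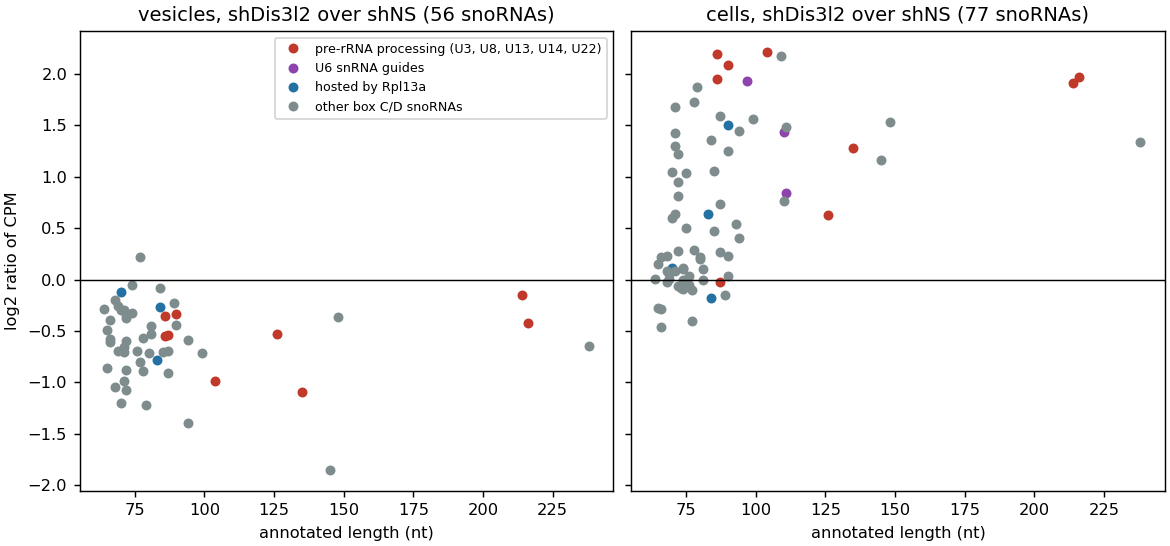
log2 ratio of CPM, shDis3l2 over shNS, against annotated length in nt for the measured box C/D snoRNAs of vesicles (left, 56) and cells (right, 77), coloured by group. In cells the members of 100 nt or longer all lie above 0, and in vesicles all but 1 member lie below 0 with no such order by length (rho -0.09).

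How the table divides reads bears on these values. Of the 88 members, 37 lie within an exon of another annotated transcript of the same strand, and 50 share at least 30 nt in a row with another feature, so the estimated counts can be divided between a snoRNA and a retained intron. Snord68 is the plainest case, with 2, 0, 0 and 0 counts of its own in vesicles labelled shDis3l2, vesicles labelled shNS, cells labelled shDis3l2 and cells labelled shNS; with the transcript of Rpl13 that holds it, the unit had 620, 634, 12073 and 11072 counts. Snord68 is named here after its values were seen.

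Of 14 genes for box C/D particle proteins and their assembly, Nop56 and Nop58 were the measured genes in cells, and both were at least 2-fold higher with the label shDis3l2. Nop56 had 2300 counts in cells labelled shDis3l2 and 732 in cells labelled shNS (log2 ratio 1.75), and Nop58 had 1390 and 294 (2.34). Outside miRNA hairpins the log2 ratios were 1.46 for Nop56 and 2.05 for Nop58. A retained-intron transcript of Nop56 with no annotated snoRNA had 1560 counts in cells labelled shDis3l2 and 316 in cells labelled shNS, and another that holds Snord57 had 738 and 393. A nonsense-mediated decay transcript of Nop58 had 1302 and 197. The protein-coding transcripts of Nop56 with the most counts had 0 in both cell libraries. The protein-coding transcript of Nop58 with counts in cells went the other way, with 23 with the label shDis3l2 and 47 with shNS. The gene totals in cells thus lay mostly on transcripts not typed protein-coding, and they do not show a rise of the coding mRNAs. The genes themselves host box C/D snoRNAs, Snord57 and Snord110 in Nop56 and Snord11 and Snord70 in Nop58, the last 3 named here as hosted members. In cells their log2 ratios were 0.28 for Snord57, 0.23 for Snord110, 1.36 for Snord11 and 0.74 for Snord70, and that of Snord11 was 1.07 outside miRNA hairpins. In vesicles 9 of the 14 genes were measured and 0 were at least 2-fold apart. Of 12 snoRNA processing and decay genes in the table, 3 were measured in cells, Dis3l2 itself, Tent4a (log2 ratio 0.36) and Tut7 (0.12), and 10 in vesicles, where Tent4a was the 1 gene at least 2-fold higher on all counts (1.09) and was under 2-fold outside miRNA hairpins (0.95).

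In vesicles the direction was the other one: box C/D snoRNAs were mostly lower with the label shDis3l2 than with shNS. Of 56 measured members, 7 were lower by 2-fold or more (12.5%) and 0 were higher by as much, against 5.59% lower and 16.8% higher of 8531 measured features. The median log2 ratio was -0.57 for members and 0.34 for all features, and 55 of the 56 ratios were under 1. Outside miRNA hairpins the medians were -0.72 for members and 0.19 for all features, and 13 members were at least 2-fold lower, against 6.95% lower and 14.1% higher among all features. Of 7 measured H/ACA snoRNAs, 0 were at least 2-fold apart on all counts, with a median of -0.55. A fall was also seen for miRNA hairpins: of 195 measured, 25.6% were at least 2-fold lower and 3.59% higher on all counts, with a median of -0.64. Snord53 (43 and 66 counts in vesicles labelled shDis3l2 and shNS) was just inside the minimum of 100 counts, and Snord85 (41 and 57) and Snord91a (42 and 56) just outside.

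The members at least 2-fold lower in vesicles labelled shDis3l2 were U8 and members outside the lists. Snord15b had 23 counts in vesicles labelled shDis3l2 and 87 in vesicles labelled shNS, a log2 ratio of -1.85 (-2.60 to -1.20). Snord55 had 581 and 1399 counts, a log2 ratio of -1.22 (-1.36 to -1.08). Snord104 had 1031 and 2454 counts, a log2 ratio of -1.20 (-1.31 to -1.10). U8 had 777 and 1711 counts, a log2 ratio of -1.09 (-1.22 to -0.97). The others were Snord83b (-1.40), Snord49a (-1.07) and Snord110 (-1.04), which are named because they complete the 7. With the transcripts that hold it, Snord15b had a log2 ratio of -0.89, under 2-fold.

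The U3 and U14 copies were closer to 1 than U8 in vesicles. Rnu3b1 had 2470 counts in vesicles labelled shDis3l2 and 3406 in vesicles labelled shNS, a log2 ratio of -0.42, and Rnu3a had 418 and 479, a log2 ratio of -0.15 with an interval of -0.34 to 0.04. Snord14c, Snord14d and Snord14e had log2 ratios of -0.55, -0.36 and -0.33, and Snord14a, with 50 and 75 counts, had -0.53. Snord13, with 36 and 74 counts, had -0.98 (-1.61 to -0.40) on all counts and -1.13 outside miRNA hairpins. Over the 9 measured members of the processing list the median was -0.53, next to -0.60 over the 44 members outside the lists. Of the processing list, 1 member was at least 2-fold lower on all counts and 2 outside miRNA hairpins. Of the Rpl13a guides, Snord32a had -0.78, Snord33 -0.27 and Snord34 -0.12. Snord80 was the member above 1, with 1034 counts in vesicles labelled shDis3l2 and 914 in vesicles labelled shNS (log2 ratio 0.22), which was -0.02 with TMM factors, -0.13 outside miRNA hairpins and tRNAs and 0.03 in its host unit.

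Against the cells of the same label, vesicles held far less of nearly every box C/D snoRNA. Under the label shDis3l2, 75 of 75 measured members were at least 2-fold lower in vesicles than in cells, against 16.1% lower and 77.3% higher of 6876 measured features, with a median log2 ratio of -5.72 for members and 3.03 for all features. Under the label shNS, 71 of 72 measured members were at least 2-fold lower in vesicles, against 17.0% lower and 74.5% higher of 6129 features, with medians of -4.34 and 2.73. Per counts outside miRNA hairpins the member medians were -6.92 with the label shDis3l2 and -5.69 with shNS, and those of all features 1.82 and 1.38. On that denominator 75 of 75 members under shDis3l2 and 71 of 72 under shNS were again lower by 2-fold or more in vesicles, against 19.7% lower and 66.1% higher of all features under shDis3l2 and 21.9% lower and 58.3% higher under shNS. H/ACA snoRNAs were also lower in vesicles, in 24 of 25 measured with a median of -3.43 under shDis3l2 and in 20 of 23 with a median of -2.12 under shNS. Of 206 miRNA hairpins measured under shDis3l2, 70.4% were at least 2-fold lower and 16.0% higher, with a median of -2.04. Under shNS 64.3% of 210 hairpins were lower and 13.8% higher, with a median of -1.40.

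Under the label shNS, U13, the U14 copies of Hspa8 and Rnu3b1 were among the members least depleted from vesicles, with the guide Snord93 (log2 ratio -1.93, named here after its value was seen). Under the label shNS the log2 ratio of vesicles over cells was -1.19 for Snord14c, -1.47 for Snord14e, -2.43 for Snord14d and -1.82 for Rnu3b1. Snord13, with 74 counts in vesicles and 50 in cells labelled shNS, was the 1 member above 1 on all counts (log2 ratio 0.68), but its ratio was -0.67 outside miRNA hairpins and -0.03 with TMM factors. At the other end, Snord98 had a log2 ratio of -7.09, Snord1c of -6.77, Snord111 of -6.74, Snord78 of -6.60, Snord58b of -6.34, Snord37 of -6.30 and Snord52 of -6.21. The processing list had a median of -2.43 and the members outside the lists one of -4.59. Under the label shDis3l2 the processing list had a median of -4.21 and the members outside the lists one of -5.89. There Snord13 was at -2.52, Snord80 at -3.45, Snord14c at -3.94, Rnu3b1 at -4.21 and Snord98 at -7.30. Snord1a is named here for its count of 0 in vesicles labelled shDis3l2, against 422 counts in cells labelled shDis3l2. On its own counts it was at least 135-fold lower in vesicles, at a floor of 3 counts in that library. With the 1810032O08Rik transcript that holds it, the unit had 8 counts in those vesicles and 645 in those cells, a smaller difference. Length went with the ratio under both labels, with a rho of 0.31 over 75 members under shDis3l2 and 0.53 over 72 members under shNS. Under shDis3l2 it was 0.25 over the 72 members under 150 nt and 0.17 over the 66 outside the processing list, and under shNS it was 0.48 over 69 and 0.43 over 63. These comparisons use the same 4 libraries as the label ratios, so they are not separate evidence of the same pattern.

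**Figure D5:**
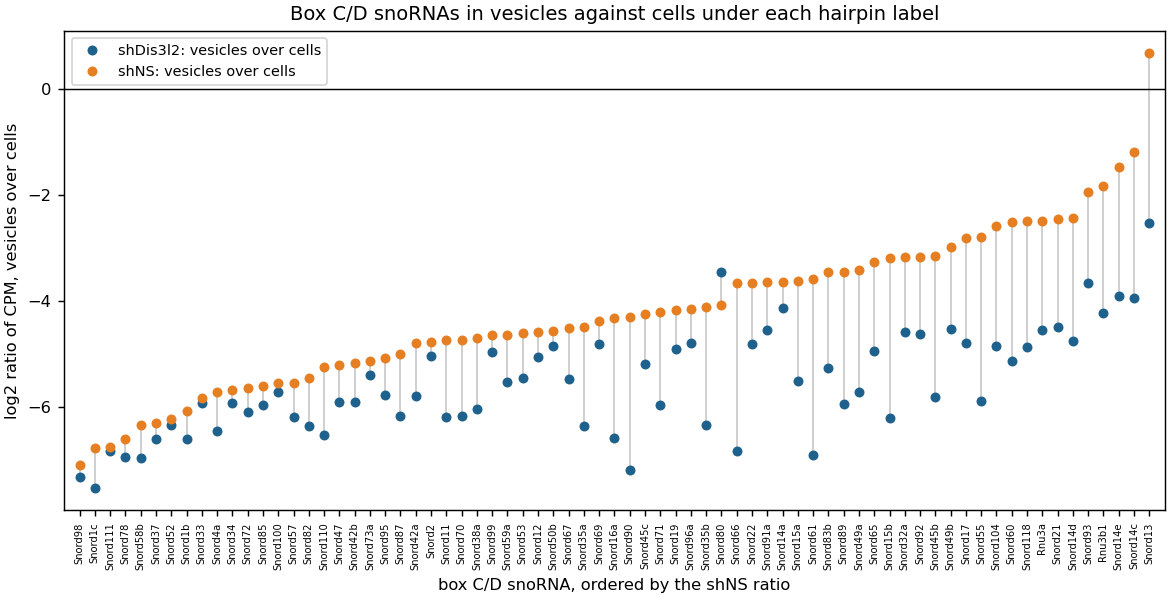
log2 ratio of CPM, vesicles over cells, under the label shDis3l2 (blue) and shNS (orange), ordered by the shNS ratio. The 71 box C/D snoRNAs shown were measured under both labels and had a count in each vesicle library, so Snord1a is left out. The shDis3l2 point lies under the shNS point for all snoRNAs shown except Snord80, and Snord13 alone lies above 0, under shNS.

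The label ratio was lower in vesicles than in cells for most members measured in both. Over 56 members the difference of log2 ratios, vesicles minus cells, had a median of -1.16, next to -0.17 over 1710 features of the table measured in both pairs. Its normal 95% counting interval lay under 0 for 45 members and above 0 for 1, and 30 members had a difference of at least 2-fold below 0. Over the 1710 features the interval lay under 0 for 737 and above 0 for 493, and the difference was at least 2-fold below 0 for 385 and at least 2-fold above 0 for 224. The furthest below 0 were Snord13 (-3.20, interval -3.92 to -2.47), Snord55 (-3.09), Snord15b (-3.01), Snord14c (-2.75) and Snord45b (-2.66). The furthest in the other direction were Snord80 (0.62), Snord111 (-0.07), Snord33 (-0.09), Snord52 (-0.11) and Snord100 (-0.16). These last 5 had log2 label ratios between -0.47 and 0.11 in cells. For the 7 measured H/ACA snoRNAs the median difference was -1.56.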

How the data were processed

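Small RNA of RAW264.7 cells and their vesicles was sequenced in 4 libraries with 1 library a group, using the QIAseq miRNA kit and 50 nt reads, per the labels' protocols. The authors deposited estimated counts per transcript. Per the submitters' processing notes, cutadapt, Salmon and Novoalign were used with builds GRCm38 and mm10. Tool versions, and whether reads were collapsed to molecules, are not given in the sources used here. Depth ran from 17612144 to 19740443 counts per library.

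The values were rounded to whole numbers and named from GENCODE M21. For each of 4 comparisons, log2 ratios of CPM were computed with a pseudocount of 0.5 over the whole table, with exact conditional (Clopper-Pearson) 95% intervals, for features with at least 100 counts over the pair. These intervals and the floor of 3 counts cover counting error only. A feature counts as apart at 2-fold or more with an interval that excludes 1. No p-value was computed.

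Members and lists were chosen with earlier results of these data known. Members are named when they are, with at least 50 CPM and an interval that excludes 1, among the 8 largest ratios of a comparison in each direction. The others named are the 10 most abundant of a library, the 5 largest differences of label ratios in each direction, Dis3l2 and the measured members of the lists for pre-rRNA processing, U6 guides, Rpl13a, imprinted snoRNAs, particle proteins, and processing and decay. Those named outside this rule are said to be so, or are members of a count of 7 or fewer.

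Alternatives were edgeR 4.0.16 TMM factors, DESeq2 1.42.0 size factors, denominators without miRNA hairpins or without hairpins and tRNAs, count minimums of 10, 1000 and none, a pseudocount of 5, thresholds of 1.5-fold and 4-fold, copies sharing 30 nt summed, and host units, in which a member is summed with same-strand transcripts whose exon holds it and that have at least 10% of the joint counts. Scripts ran in Python 3.11.15 with SciPy 1.17.1. The ratios were tested on simulated Poisson counts, which hold no variation between libraries and no splitting of reads between transcripts. That test therefore covers counting error only.

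The sequence and host of 1 member are not reported here.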

Additional observations from a re-analysis of the deposited data

Results flagged for a closer look

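For 5 box C/D snoRNAs the label ratio was at least 2-fold above 1 in cells and at least 2-fold below 1 in vesicles. With 1 library a group the difference was not tested between replicates, and each pair is a single pair of libraries. The difference of log2 ratios, vesicles minus cells, was -3.09 for Snord55, -3.01 for Snord15b, -2.37 for Snord118 (U8), -2.30 for Snord49a and -2.25 for Snord104. Among all 1710 features measured in both pairs, 29 had this combination. In vesicles Snord15b had 23 and 87 counts with the labels shDis3l2 and shNS. With the transcript that holds it, the unit had 125 and 240 counts, under 2-fold, and so did not have this combination. On counts outside miRNA hairpins the ratio in cells was under 2-fold for Snord15b (log2 0.87), Snord118 (0.99), Snord49a (0.93) and Snord104 (0.75), while that of Snord55 was 1.58.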

How the results depend on the processing

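Each of the 4 comparisons was recomputed under other denominators, count minimums, pseudocounts, fold thresholds and units, and 0 called ratios changed direction. In cells, the median log2 ratio of members was 0.25 outside miRNA hairpins and 0.26 outside hairpins and tRNAs, and 4 members were higher at a 4-fold threshold. In vesicles, the number of members lower with the label shDis3l2 was 13 outside hairpins, 23 outside hairpins and tRNAs, 15 with TMM and 14 with DESeq2 factors. It was 14 with a minimum of 10 counts, 14 with none and 3 with a minimum of 1000, and 27 at 1.5-fold and 0 at 4-fold; the vesicle median was -0.92 outside hairpins and tRNAs. The median of vesicles against cells was -6.92 outside hairpins, -6.40 outside hairpins and tRNAs, -6.57 with TMM and -6.66 with DESeq2 factors under shDis3l2, and -5.69, -4.96, -5.05 and -5.16 under shNS, where 1 member was higher at 1.5-fold. The median difference of label ratios was -2.28 with a minimum of 1000 counts. The share of counts on members was 0.127% outside hairpins and 0.131% in host units for vesicles labelled shDis3l2, 0.210% and 0.193% for vesicles labelled shNS, 11.0% and 4.57% for cells labelled shDis3l2, and 9.55% and 3.17% for cells labelled shNS. Different denominators give the shares and the medians by construction; the cause of the other moves was not tested. Of the values of single members under an alternative, 1192 kept their side of 2-fold and, where under 2-fold, stayed within their counting interval; 130 under 2-fold moved out of that interval, 19 came to pass 2-fold and 9 no longer did. In cells, Snord104 was under 2-fold with TMM (log2 0.95) and DESeq2 factors (0.96). No paired analysis was possible because each group has 1 library and the labels carry no replicate numbers. In vesicles 37 and 47 members reached 100 counts with the labels shDis3l2 and shNS, so low counts limit what could be measured there.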
